A study of Mus musculus with 12 samples.

Results

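The immune signalling and antigen genes described here were 64 genes whose symbols name interleukins, chemokines, tumour necrosis factor (TNF) relatives, interferon-response and signal-transducer genes, class II antigen genes, C1q subunits or CD surface antigens. They were chosen by symbol, from genes with a value in all 12 samples, and were 64 of 6427 measured genes. Roles were assigned by symbol too, so a role name does not mean that each gene responds to interferon or is a surface protein. By role they comprised 8 interleukins and interleukin receptors, 3 chemokines, 6 TNF family and TRAF genes, 2 genes of Toll-like receptor and NF-kB signalling (Irak1 and Nfkbia), 19 interferon-response genes, 4 antigen presentation and C1q genes and 22 CD antigens. The array carried 158 genes whose symbols fit, and 94 of them had no value, among them all 3 Toll-like receptors, all 3 chemokine receptors and 6 of 8 class I and II antigen genes. The samples were whole brains of C57Bl/6j mice taken at postnatal day 10: wildtype, Gja9 (-/-), called Gja9_null below, and Gja9 (+/-), called Gja9_het, with 4 biological replicates of each. Gja9 in the labels is now named Gjd2 and encodes connexin36, the gap junction protein of most electrical synapses between neurons. The labels do not describe how the allele was made, and 0 probes with values were named for that gene, so the loss of its transcript was not checked here. The labels call the samples biological replicates without naming animals, so p-values measure the spread between these samples.

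Cytokines and pattern-recognition receptors signal through adaptor kinases such as Irak1 to NF-kB, or through Janus kinases to STAT factors, and interferons use the latter route to induce antiviral genes. In the healthy brain microglia carry most of the C1q, complement and antigen-presentation genes, while B and T lymphocytes are few. Many CD antigens, such as the tetraspanins Cd9 and Cd81, are also made by neurons, glia and vessels.

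Each value is a log2 signal relative to the mean signal of its sample, averaged over the cDNA clones of a gene, and a difference is between genotype means on that scale. Samples 1 and 2 of a genotype, and samples 3 and 4, were the 2 colours of 1 array, so each genotype lay on 2 arrays, and the number of arrays limits the precision. Members differed little between the colours of an array, by a median of 0.08 to 0.17, and more between the 2 arrays of a genotype, by a median of 0.37 in wildtype, 0.52 in Gja9_null and 0.32 in Gja9_het. The arrays of a genotype differed by more than 1 for 7 members in wildtype, 7 in Gja9_null and 1 in Gja9_het. The 8 measured neuron markers had summed linear levels of 19.0 to 29.6 times a sample's mean signal, and 9 measured astrocyte markers 16.65 to 28.35. The 12 measured markers of microglia and perivascular macrophages summed to 17.85 to 25.32. Such sums depend on which genes a list holds, so they do not by themselves mark the tissue. The first Gja9_null array (samples 1 and 2) had low values in several stretches of probe numbers. For some of the members that turn on it, differences are given below without this array, after centring on neighbouring probes, or both.

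Between Gja9_null and wildtype brains, Irak1 and Irgq were higher and Il20rb was lower. These 3 of 64 members, 4.69%, had an adjusted p under 0.05 (limma with Benjamini-Hochberg adjustment over all 9514 features), where 0.326% of all features did. The symbols were chosen with earlier results of these data known, so nothing is drawn from the gap between these shares. At an unadjusted p under 0.05 there were 9 members (14.1%), against 11.6% of all features. Of the 9 members 3 were higher and 6 lower, and of the 9514 features 229 were higher and 877 lower. All 4 Gja9_null samples lay above all 4 wildtype samples for 4 members (6.25%), against 7.52% of features, and below them for 12 members (18.8%), against 15.6%. The shares at the unadjusted p and without overlap lay near those of all features. The median difference over the 64 members was -0.14, and over all features -0.10.

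Between Gja9_het and wildtype, 0 members and 0% of features had an adjusted p under 0.05 by limma with Benjamini-Hochberg adjustment. At an unadjusted p under 0.05 there were 3 members (4.69%), Irak1, Oas1a and Samhd1, all higher in Gja9_het, against 2.19% of features. Without overlap, 7 members were higher (10.9%, against 8.67% of features) and 2 were lower (3.12%, against 6.09%). With the replicate number as a block, a fit that takes same-numbered samples as pairs and drops the array, 3 members passed, Irak1, Oas1a and Ifi209, with 1.42% of all features.

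Gja9_null and Gja9_het were also compared directly. Here Il17rc and Il20rb were lower in Gja9_null, which made 2 members (3.12%) with an adjusted p under 0.05 in limma, against 0.273% of features. At an unadjusted p under 0.05 there were 14 members (21.9%), against 15% of features. Without overlap, 7 members were higher in Gja9_null (10.9%, against 10.2%) and 17 were lower (26.6%, against 22.5%). The median difference was -0.29 over members and -0.17 over all features. The 3 comparisons share samples and are not independent of one another.

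**Figure D1:**
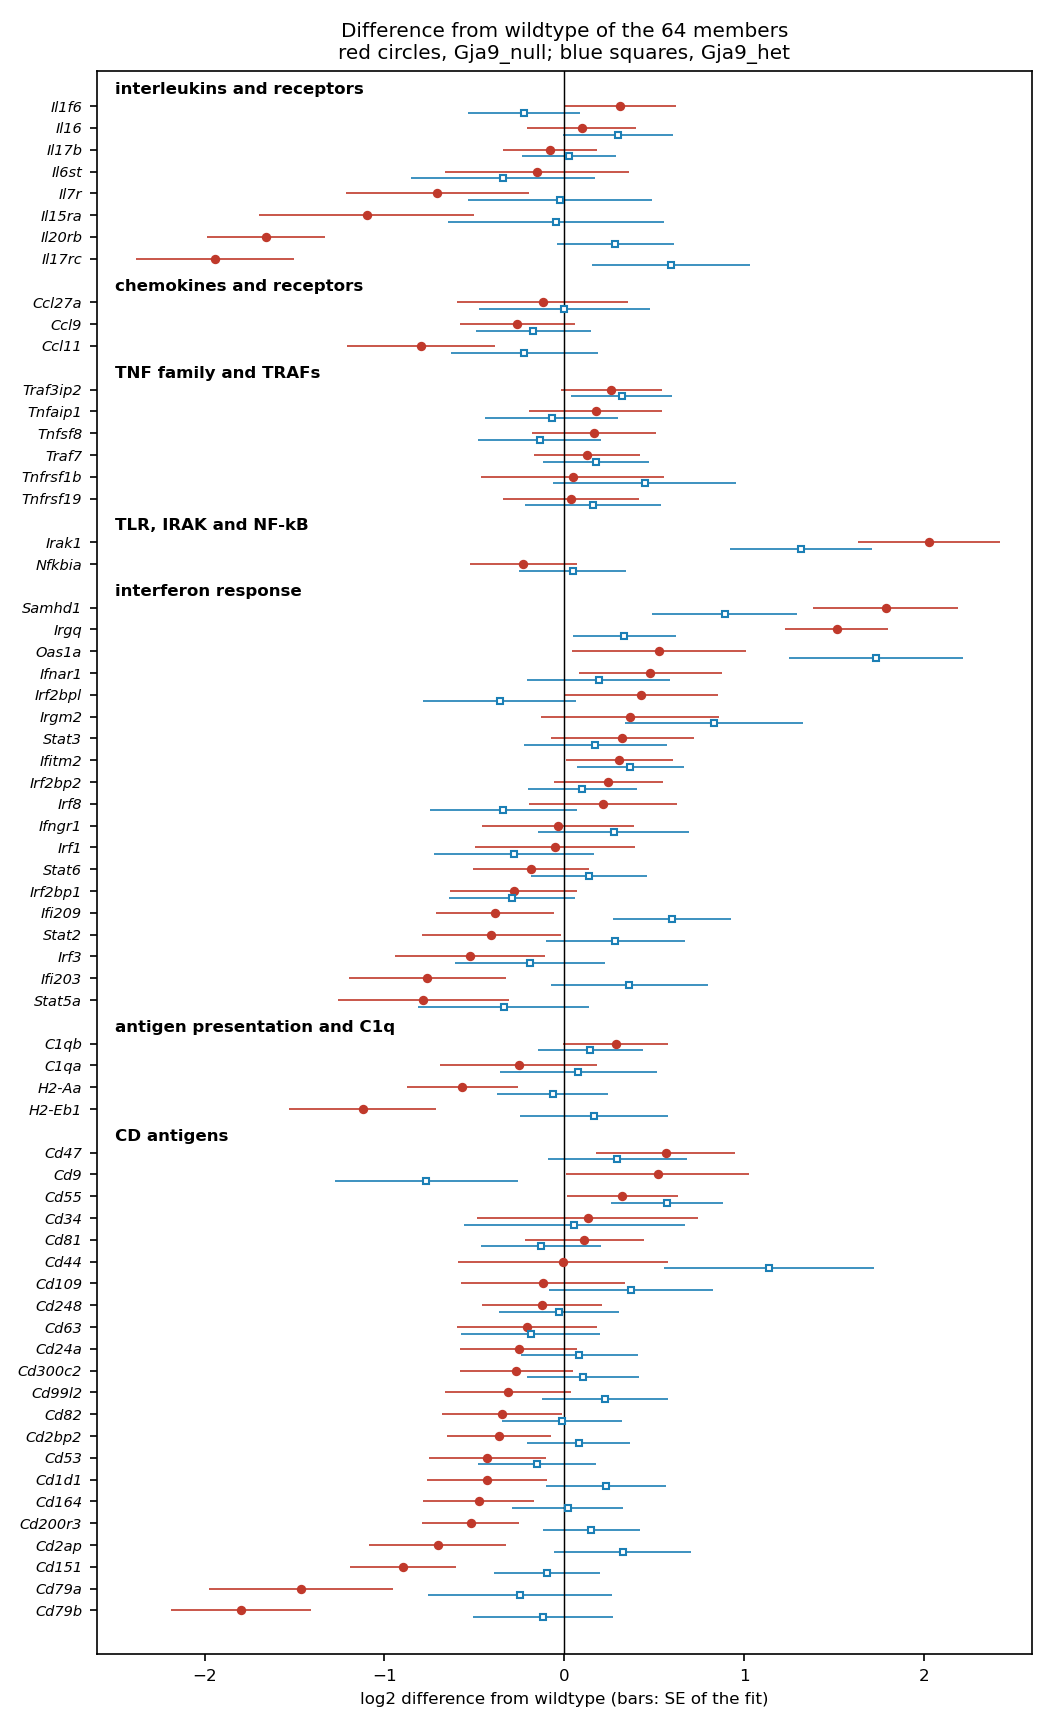
Difference from wildtype of each of the 64 members, in log2 units on the horizontal axis, ordered by role; red circles are Gja9_null, blue squares Gja9_het, and bars are the SE of the limma fit. Irak1 stood at 2.03 in Gja9_null and 1.31 in Gja9_het, and the most negative Gja9_null differences were those of Il17rc, Cd79b and Il20rb.

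Irak1 encodes the kinase that Toll-like and interleukin-1 family receptors recruit through the adaptor Myd88. Its wildtype values were -3.01, -2.69, -3.54 and -3.47, those of Gja9_het -1.71, -1.40, -2.14 and -2.21, and those of Gja9_null -1.17, -1.12, -1.33 and -0.97. The 3 genotypes did not overlap, with wildtype lowest, Gja9_het between and Gja9_null highest. The Gja9_null difference from wildtype was 2.03 ± 0.39 (SE, n = 4 and 4), a 4.08-fold higher level, with an adjusted p of 0.044 in limma with Benjamini-Hochberg adjustment. It was 2.03 within the Cy5 samples and 2.03 within the Cy3 samples, and over the pairs of a Gja9_null with a wildtype array it ran from 1.70 to 2.36. The Gja9_het difference was 1.31 ± 0.39 (unadjusted p = 0.0048, adjusted p = 1 in limma), and Gja9_null exceeded Gja9_het by 0.72 ± 0.39 (adjusted p = 0.41 in limma). Irak1 rested on 1 clone, and with the colours of each array averaged its adjusted p against wildtype was 0.10.

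Nfkbia, which encodes the inhibitor that holds NF-kB in the cytoplasm, is itself an NF-kB target gene. Its values ran from -1.10 to -0.82 in wildtype, from -1.53 to -0.86 in Gja9_null and from -1.07 to -0.78 in Gja9_het, so the genotypes overlapped. Its difference from wildtype was -0.23 ± 0.30 in Gja9_null and 0.05 ± 0.30 in Gja9_het. Without the first Gja9_null array the Gja9_null difference was 0.07 ± 0.30. Its 2 clones gave -0.42 ± 0.44 and -0.04 ± 0.41 in Gja9_null. The first of these clones was -1.64 and -1.65 on the first Gja9_null array and -0.003 and -0.09 on the second. Of 17 further measured genes of Toll-like receptor, interleukin-1 and NF-kB signalling, 0 had an adjusted p under 0.05 in limma in any comparison. In Gja9_null against wildtype, 229 of all 9514 features were higher and 877 lower at an unadjusted p under 0.05. Of the 17 genes, 1 was higher and 1 lower. These were Ikbkb, the kinase that marks the inhibitor for degradation (1.36 ± 0.54), and Rela, the NF-kB subunit p65 (-1.02 ± 0.39). Irak1's 250 bases before the start site are shown because Irak1 had the largest positive difference of the members.

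Irak1: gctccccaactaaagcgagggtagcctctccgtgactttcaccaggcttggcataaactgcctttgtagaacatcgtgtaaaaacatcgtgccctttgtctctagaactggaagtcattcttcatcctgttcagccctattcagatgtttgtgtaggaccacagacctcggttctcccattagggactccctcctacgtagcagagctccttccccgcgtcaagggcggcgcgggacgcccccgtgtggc

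That window, from the RefSeq promoter table (GRCm38.p6, chrX:74023922-74024171, minus strand, the first of 2 listed starts), held none of the 3 motifs searched, GAAANNGAA, TTCNNNGAA and GGANTTTCC.

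Among interleukin receptors, Il17rc and Il20rb had the most negative differences between Gja9_null and wildtype. Il20rb encodes a subunit of the receptors for interleukins of the IL-20 family. Its wildtype values were -2.83, -2.89, -2.32 and -2.37, those of Gja9_het -2.35, -2.41, -2.14 and -2.37, and those of Gja9_null -4.36, -4.67, -3.88 and -4.13. All Gja9_null samples lay below all others, while wildtype and Gja9_het overlapped. The difference from wildtype was -1.66 ± 0.33 (SE), 3.16-fold lower (adjusted p = 0.047 in limma), and from Gja9_het -1.94 ± 0.33, 3.85-fold lower (adjusted p = 0.028 in limma).

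Il17rc encodes a chain of the receptor for IL-17. Its wildtype values were -1.88, -1.71, -1.54 and -1.31, those of Gja9_het -1.15, -0.95, -1.07 and -0.89, and those of Gja9_null -3.82, -4.15, -3.11 and -3.13. The 3 genotypes did not overlap, with Gja9_null lowest and Gja9_het highest. Gja9_null was 5.79-fold below Gja9_het, a difference of -2.53 ± 0.44 (adjusted p = 0.034 in limma), and -1.94 ± 0.44 from wildtype (adjusted p = 0.095 in limma). Traf3ip2, the adaptor that IL-17 receptors recruit, differed from wildtype by 0.26 ± 0.28 in Gja9_null and 0.32 ± 0.28 in Gja9_het.

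Both receptor genes had 1 clone each, and the other probes with nearby probe numbers were low in the same samples. Around the Il20rb clone, the 60 other probes within 50 probe numbers had a median Gja9_null difference from wildtype of -1.50, and around the Il17rc clone 48 such probes had a median of -1.11. Local centring subtracts, in each sample, the median deviation of such neighbours. After it the Il20rb difference was -0.25 ± 0.18 from wildtype and -0.35 ± 0.18 from Gja9_het (adjusted p = 0.55 and 0.27 in limma). The Il17rc difference from Gja9_het was -1.33 ± 0.24 after it (adjusted p = 0.025 in limma). Against wildtype, Il17rc was not among the members with an adjusted p under 0.05 in limma after local centring. Without the first Gja9_null array, the Il20rb difference was -1.40 ± 0.33 from wildtype (adjusted p = 0.10 in limma) and -1.69 ± 0.33 from Gja9_het (adjusted p = 0.033), and the Il17rc difference was -1.51 ± 0.31 from wildtype (adjusted p = 0.065) and -2.10 ± 0.31 from Gja9_het (adjusted p = 0.010). Irak1 went the other way from its neighbours: its 46 neighbours had a median of -0.64, and its difference after local centring was 2.67 ± 0.26. Whether the place of the clones has a part in the Il20rb and Il17rc differences was not tested beyond this.

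The other 6 interleukin genes had no adjusted p under 0.05 in limma, nor an unadjusted p under 0.05, in any comparison. Il15ra, which presents IL-15 to neighbouring cells, ranged from -3.92 to -2.35 in wildtype and from -5.08 to -3.44 in Gja9_null, with overlap. Its difference was -1.10 ± 0.60, -0.58 ± 0.67 without the first Gja9_null array and -0.88 ± 0.36 after local centring. Il6st, the shared signalling chain of the IL-6 family, lay between -1.85 and -1.67 in wildtype, while the Gja9_null arrays split into -2.62 and -2.26 against -1.56 and -1.23. Its difference from wildtype was -0.15 ± 0.51 with both arrays and 0.37 ± 0.46 without the first. Il16, Il17b and Il1f6 differed from wildtype by 0.10, -0.08 and 0.31 in Gja9_null. Of 14 other genes of cytokine receptor and JAK-STAT signalling, 0 had an adjusted p under 0.05 in limma in any comparison. At an unadjusted p under 0.05, 3 were lower in Gja9_null than in wildtype, as were 877 of all 9514 features. Among the 3 was the kinase Jak2 (-0.80 ± 0.30).

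**Figure D2:**
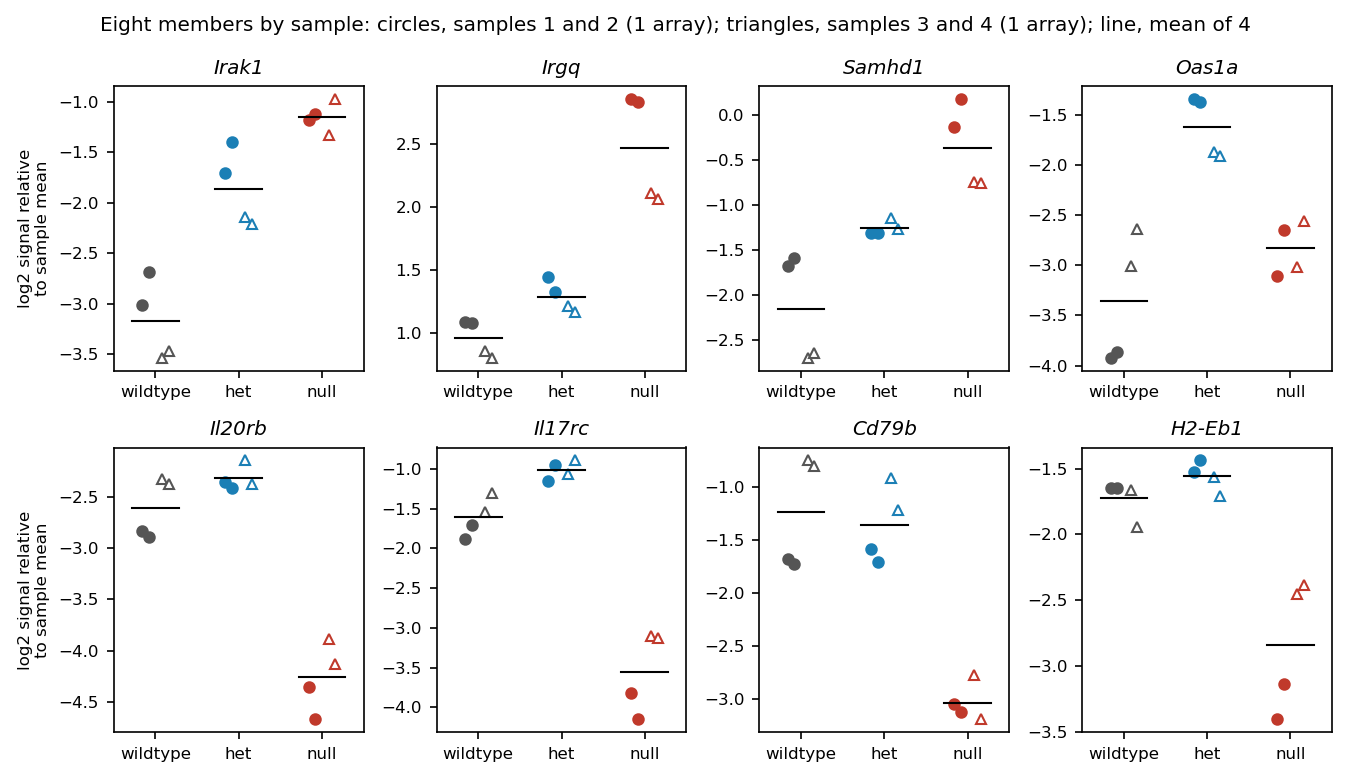
Log2 signal relative to the sample mean (vertical axis) of 8 members in each sample of wildtype, Gja9_het and Gja9_null; circles are samples 1 and 2, triangles samples 3 and 4, and the line is the mean of 4. The colours of an array lie close together, and the Gja9_null samples of Il20rb, Il17rc, Cd79b and H2-Eb1 all lie below the other genotypes.

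The 19 genes placed by symbol in the interferon-response role held Irgq, the third member called between Gja9_null and wildtype. Irgq encodes a relative of the interferon-inducible GTPases. Its wildtype values were 1.08, 1.08, 0.86 and 0.80, those of Gja9_het 1.44, 1.33, 1.21 and 1.17, and those of Gja9_null 2.86, 2.84, 2.12 and 2.06. The genotypes did not overlap, and Gja9_null was highest. The difference from wildtype was 1.51 ± 0.29 (SE), 2.86-fold (adjusted p = 0.039 in limma), and from Gja9_het 1.18 ± 0.29 (adjusted p = 0.092 in limma).

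The Irgq call came mainly from 1 of its 2 clones. In that clone the wildtype values were 1.74, 1.72, 0.82 and 0.84, those of Gja9_het 2.87, 2.77, 1.74 and 1.75, and those of Gja9_null 4.49, 4.54, 3.40 and 3.41, a Gja9_null difference from wildtype of 2.68 ± 0.43. In the other clone the same samples gave 0.42, 0.44, 0.90 and 0.76 in wildtype, 0.01, -0.12, 0.68 and 0.59 in Gja9_het, and 1.24, 1.13, 0.83 and 0.71 in Gja9_null, a difference of 0.35 ± 0.34. In the first clone Gja9_null lay above both others, with Gja9_het samples 3 and 4 level with wildtype samples 1 and 2. In the second Gja9_null lay above Gja9_het but overlapped wildtype. The neighbours of the clones had median differences of -0.06 and 0.36. The gene's difference was 1.37 ± 0.19 after local centring (adjusted p = 0.0046 in limma) and 1.13 ± 0.27 without the first Gja9_null array (adjusted p = 0.11).

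Samhd1 encodes an enzyme that degrades deoxynucleotides and restricts viral replication. Its wildtype values were -1.68, -1.59, -2.70 and -2.64, those of Gja9_het -1.31, -1.32, -1.15 and -1.27, and those of Gja9_null -0.14, 0.18, -0.74 and -0.76. As for Irak1, wildtype was lowest, Gja9_het between and Gja9_null highest, with no overlap. The Gja9_null difference was 1.79 ± 0.40 (adjusted p = 0.094 in limma), and 1.66 ± 0.26 after local centring (adjusted p = 0.011 in limma). The Gja9_het difference was 0.89 ± 0.40 (unadjusted p = 0.044, adjusted p = 1 in limma).

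Oas1a, a sensor of double-stranded RNA, differed from these in its order. Its wildtype values were -3.92, -3.86, -3.00 and -2.64, those of Gja9_null -3.10, -2.65, -3.01 and -2.56, and those of Gja9_het -1.34, -1.38, -1.87 and -1.91. Gja9_het lay above both other genotypes, which overlapped. The Gja9_het difference from wildtype was 1.73 ± 0.48 (unadjusted p = 0.0029, adjusted p = 1 in limma), and Gja9_null was below Gja9_het by a difference of -1.21 ± 0.48 (adjusted p = 0.27 in limma). Oas1a is one of a family of closely similar genes, and cDNA clones may not tell them apart.

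The other interferon-response genes had no adjusted p under 0.05 in limma in any comparison. The receptor chain Ifnar1 was higher in all 4 Gja9_null samples (-0.80 to -0.44) than in wildtype (-1.33 to -0.94), a difference of 0.48 ± 0.40. The receptor chain Ifngr1 overlapped between genotypes, with means of 2.07 ± 0.43 in wildtype, 2.04 ± 0.17 in Gja9_null and 2.35 ± 0.20 in Gja9_het (SD, n = 4). Of the transcription factors, Irf1, Irf3 and Irf8 had Gja9_null differences of -0.05, -0.52 and 0.22, and Stat2, Stat3, Stat5a and Stat6 of -0.41, 0.32, -0.78 and -0.18. Irf3 split by array in Gja9_null, with -3.80 and -3.68 on the first and -2.20 and -2.28 on the second, against a wildtype range of -2.56 to -2.30. Without the first array its difference was 0.22 ± 0.31, and after local centring -0.12 ± 0.19. Without that array Irf1, Stat3 and Stat5a differed from wildtype by 0.52 ± 0.40, 0.76 ± 0.42 and -1.17 ± 0.37. Ifi209, a DNA-sensing family gene, was lower in all Gja9_null samples (-2.08 to -1.42) than in all Gja9_het samples (-1.10 to -0.34), a difference of -0.98 ± 0.33 (adjusted p = 0.19 in limma).

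Over the 19 genes the median Gja9_null difference from wildtype was 0.22, with 10 above 0 and 9 below, and the median Gja9_het difference was 0.19. Of 17 other measured interferon-stimulated and nucleic acid sensing genes, 0 had an adjusted p under 0.05 in limma in any comparison. In Gja9_null against wildtype 5 of the 17 lay above 0 and 12 below, with a median of -0.24. At an unadjusted p under 0.05 in limma 1 was lower, as were 877 of all 9514 features. With local centring the median of the 17 was 0.009, and that of the 19 was 0.15. Usp18, an interferon-induced protease, differed by -0.38 ± 0.55.

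Windows of 250 bases before the start site are shown for Irgq, Samhd1 and Oas1a, as the interferon-response genes with the lowest unadjusted p in a comparison with wildtype. Capitals mark matches to the motifs given after them.

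Irgq: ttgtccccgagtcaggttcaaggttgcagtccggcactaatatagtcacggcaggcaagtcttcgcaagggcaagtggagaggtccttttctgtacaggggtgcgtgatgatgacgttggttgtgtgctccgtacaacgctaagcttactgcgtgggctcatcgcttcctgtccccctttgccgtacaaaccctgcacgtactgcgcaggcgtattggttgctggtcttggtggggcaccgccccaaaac
Samhd1: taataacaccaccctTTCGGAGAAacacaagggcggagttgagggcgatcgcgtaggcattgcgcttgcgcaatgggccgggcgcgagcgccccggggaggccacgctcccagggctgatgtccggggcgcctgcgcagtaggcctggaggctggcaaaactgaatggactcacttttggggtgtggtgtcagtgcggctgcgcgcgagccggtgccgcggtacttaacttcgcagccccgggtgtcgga
Oas1a: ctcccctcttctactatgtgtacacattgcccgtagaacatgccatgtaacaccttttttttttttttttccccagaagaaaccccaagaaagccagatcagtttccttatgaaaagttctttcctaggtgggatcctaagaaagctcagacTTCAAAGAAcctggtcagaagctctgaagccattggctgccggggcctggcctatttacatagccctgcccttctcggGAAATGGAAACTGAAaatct

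They lie in GRCm38.p6 at chr7:24530398-24530647 (plus strand), chr2:157135097-157135346 (minus strand) and chr5:120907526-120907775 (minus strand), from the RefSeq table. The motifs searched on both strands were GAAANNGAA, a shortened interferon-stimulated response element, TTCNNNGAA, the binding pattern of STAT dimers, and GGANTTTCC, a shortened NF-kB site. Oas1a held overlapping GAAANNGAA matches from -20 and -14 and a TTCNNNGAA match from -98, counted from the listed start site, and Samhd1 a TTCNNNGAA match from -235. The annotated Oas1a gene reaches 120907544, inside its window, so both GAAANNGAA matches lie almost wholly within the gene. Irgq, Irak1, Il20rb and Il17rc held no match in their windows. Among the 70 promoters of the 54 members found in the table, 17.1% held GAAANNGAA, against 7.13% of all 32851 promoters, 11.4% held TTCNNNGAA, against 7.02%, and 2.86% held GGANTTTCC, against 1.07%. A match is a description of the letters and does not show a bound site.

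Antigen presentation was represented by H2-Aa and H2-Eb1, chains of class II molecules. H2-Aa values ran from 1.22 to 1.77 in wildtype, 1.12 to 1.66 in Gja9_het and 0.67 to 1.08 in Gja9_null, so Gja9_null lay below both, by -0.57 ± 0.31 from wildtype (adjusted p = 0.51 in limma). H2-Eb1 was -1.64, -1.64, -1.66 and -1.94 in wildtype, -1.52, -1.44, -1.56 and -1.71 in Gja9_het, and -3.41, -3.14, -2.45 and -2.38 in Gja9_null. Again all Gja9_null samples were lowest, with a difference from wildtype of -1.12 ± 0.41 (adjusted p = 0.32 in limma). Its 2 clones gave -1.74 ± 0.47 and -0.51 ± 0.60. Their neighbours had medians of -1.51 and -0.73, and after local centring the gene's difference was -0.04 ± 0.23. Without the first Gja9_null array it was -0.69 ± 0.36.

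The C1q subunit genes, which start the classical complement pathway, overlapped between genotypes. C1qa differed by -0.25 ± 0.44 and C1qb by 0.29 ± 0.29 in Gja9_null, and by 0.08 ± 0.44 and 0.15 ± 0.29 in Gja9_het. The 12 measured markers of microglia and perivascular macrophages had a median Gja9_null difference of -0.09, with 0 at an adjusted p and 0 at an unadjusted p under 0.05 in limma, and a median Gja9_het difference of 0.18. Of 15 other genes of antigen processing, 0 had an adjusted p under 0.05 in limma. At an unadjusted p under 0.05, 1 was higher and 3 were lower in Gja9_null than in wildtype, as were 229 and 877 of all 9514 features. Among the 3 lower was Tapbp, which loads peptides on class I molecules (-1.48 ± 0.38, adjusted p = 0.16 in limma). B2m, the class I light chain, differed by -0.24 ± 0.33. Of 9 other complement genes, 0 had an adjusted p under 0.05 in limma. In Gja9_null against wildtype 1 was lower at an unadjusted p under 0.05, as were 877 of all 9514 features.

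Among the 22 CD antigens, 0 had an adjusted p under 0.05 in limma in any comparison. In Gja9_null against wildtype 3 of the 22 were lower at an unadjusted p under 0.05, as were 877 of all 9514 features. The 3 were Cd79a, Cd79b and Cd151. Cd79a and Cd79b encode the signalling chains of the B cell receptor. Cd79b was -1.68, -1.73, -0.75 and -0.80 in wildtype, -1.58, -1.71, -0.92 and -1.22 in Gja9_het, and -3.05, -3.13, -2.78 and -3.20 in Gja9_null. Gja9_null lay below both other genotypes on both arrays, by -1.80 ± 0.39 from wildtype (adjusted p = 0.081 in limma) and -1.68 ± 0.39 from Gja9_het (adjusted p = 0.079 in limma). Cd79a was 0.30, 0.28, -0.01 and -0.02 in wildtype, -0.50, -0.25, 0.15 and 0.16 in Gja9_het, and -2.41, -2.39, -0.20 and -0.32 in Gja9_null. Its low values were those of the first Gja9_null array, and without that array the difference from wildtype was -0.40.

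Cd79a, Cd79b and Il7r were 3 of the 4 measured lymphocyte markers, and the other, Ms4a1, differed by -1.05 ± 0.37 in Gja9_null (adjusted p = 0.30 in limma). Il7r was -3.23 and -3.32 on the first Gja9_null array and -1.61 and -1.73 on the second, with wildtype from -2.28 to -1.40. Without the first Gja9_null array the Il7r difference from wildtype was 0.10 ± 0.48. The summed linear level of the 4 was 2.08 to 2.48 in wildtype, 1.57 to 2.41 in Gja9_het, 0.54 to 0.55 on the first Gja9_null array and 1.52 to 1.67 on the second. Only probes with a value in every sample were used, so the presence of values does not show that lymphocyte transcripts were detected. The other marker lists had median Gja9_null differences from wildtype of 0.06 (10 endothelial and pericyte genes), 0.07 (8 neuron genes) and -0.07 (9 astrocyte genes). The median was -0.67 for 4 oligodendrocyte genes and 0.17 for 3 erythroid genes. After local centring these medians were, in the same order, 0.02, -0.001, 0.23, -0.17 and 0.004, and that of the 4 lymphocyte markers was -0.56. Around the Cd79b and Cd79a clones the neighbours' median differences were -1.03 and -0.72, and after local centring the differences were -0.87 ± 0.32 and -0.74 ± 0.26 (adjusted p = 0.23 and 0.21 in limma). Without the first Gja9_null array the Cd79b difference was -1.75 ± 0.46 (adjusted p = 0.16 in limma). In whole brain, fewer cells of a type and less RNA per cell cannot be told apart.

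Cd151, a tetraspanin that binds laminin receptors, ran from -2.32 to -2.10 in wildtype, -2.37 to -2.19 in Gja9_het and -3.47 to -2.77 in Gja9_null. Gja9_null was lowest, by -0.90 ± 0.30 from wildtype (adjusted p = 0.26 in limma), but its neighbours had a median of -0.95, and the difference was -0.05 ± 0.19 after local centring and -0.62 ± 0.30 without the first Gja9_null array. Cd9, another tetraspanin, averaged over 2 clones, was lower in all 4 Gja9_het samples (-0.64 to -0.52) than in wildtype (-0.20 to 0.53), by -0.77 ± 0.51. The clones differed, at -0.20 and -1.33. In the first, Gja9_het values were -0.69, -0.68, 0.49 and 0.51 and overlapped wildtype. In the second they were -0.35, -0.42, -1.77 and -1.71. Gja9_null exceeded Gja9_het by 1.29 ± 0.51 (adjusted p = 0.26 in limma), and by 1.13 and 1.44 in the 2 clones. Cd44, the hyaluronan receptor, differed by 1.14 ± 0.58 in Gja9_het, with wildtype values of -4.10 and -4.24 on 1 array and -1.36 and -1.53 on the other. Cd55, which protects cells from complement, was higher in all Gja9_het samples (-1.36 to -0.96) than in wildtype (-1.84 to -1.71), by 0.57 ± 0.31. Cd47, a signal that restrains phagocytes, differed by 0.56 ± 0.39 in Gja9_null, and Cd81 by 0.11 ± 0.33. Their clones also disagreed, at 1.155 and -0.03 for Cd47 and at 0.54 and -0.32 for Cd81.

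With clones and arrays averaged, the 6 TNF family and TRAF genes lay close to wildtype. Their Gja9_null differences ran from 0.04 (Tnfrsf19) to 0.26 (Traf3ip2). Their Gja9_het differences ran from -0.14 (Tnfsf8) to 0.45 (Tnfrsf1b, a TNF receptor). There were 0 at an adjusted p and 0 at an unadjusted p under 0.05 in limma. The 4 clones of Tnfrsf19 ran from -0.51 to 1.03 in Gja9_null. Wildtype Tnfrsf1b split by array, at 0.44 and 0.30 against -0.85 and -0.70. Tnfsf8, a TNF ligand, ran from 2.08 to 2.63 in wildtype and from 2.43 to 2.59 in Gja9_null, while the Gja9_het arrays split into 1.67 and 1.64 against 2.83 and 2.71. Of 9 other measured genes of TNF receptor signalling, 0 had an adjusted p under 0.05 in limma. At an unadjusted p under 0.05, 229 of all 9514 features were higher and 877 lower in Gja9_null than in wildtype. Of the 9 genes, 1 was higher and 1 lower. These were Ltbr, the lymphotoxin receptor (1.10 ± 0.36), and Fadd, the death receptor adaptor (-1.31 ± 0.46). The 3 chemokines had Gja9_null differences of -0.80 ± 0.41 (Ccl11, an attractant of eosinophils), -0.26 ± 0.32 (Ccl9) and -0.12 ± 0.48 (Ccl27a), with 0 at an adjusted p and 0 at an unadjusted p under 0.05 in limma.

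**Figure D3:**
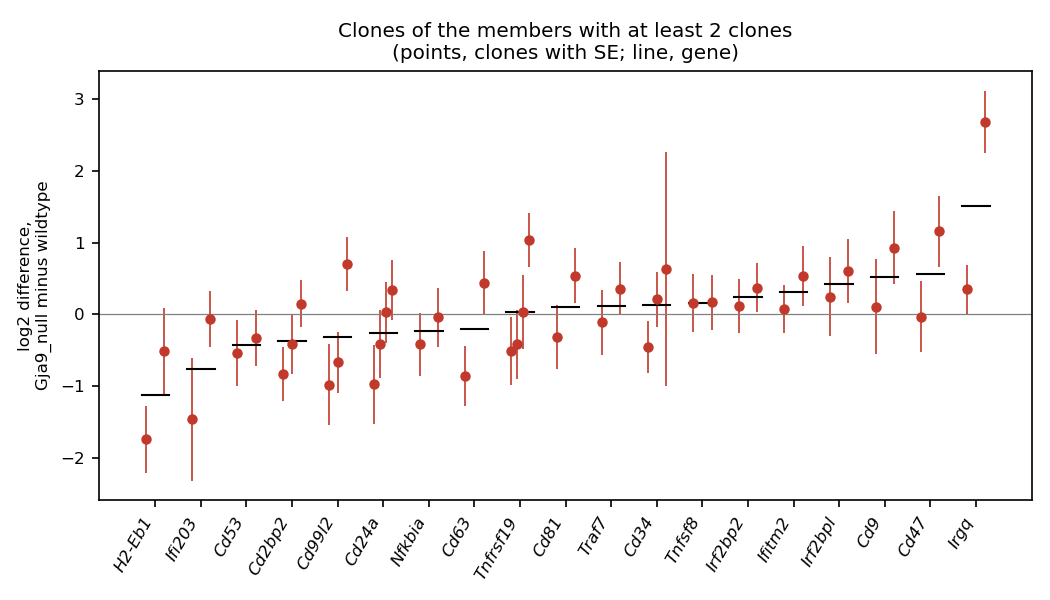
Gja9_null minus wildtype difference (vertical axis, log2) of each clone of the 19 members with at least 2 clones; points are clones with their SE and lines the gene values. The 2 Irgq clones stand at 2.68 and 0.35 and the 2 H2-Eb1 clones at -0.51 and -1.74. The 2 points of Tnfsf8 are probes that share 1 clone identifier.

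Clones of 1 gene often differed. In Gja9_null against wildtype, the clones of 9 of the 19 members with at least 2 clones lay on both sides of 0. For Cd99l2 and Tnfrsf19 they lay past 0.5 on both sides, from -0.98 to 0.71 and from -0.51 to 1.03. Tnfsf8 is counted among the 19, but its 2 probes share 1 clone identifier, so they are not separate clones. The clones of Ifi203, an interferon-inducible gene, gave -1.46 ± 0.85 and -0.06 ± 0.39. The first of these was among the dimmest 25% of probes, and so were the only clones of Irak1, Oas1a, Il20rb, Il17rc, Cd79b and Cd151.

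**Figure D4:**
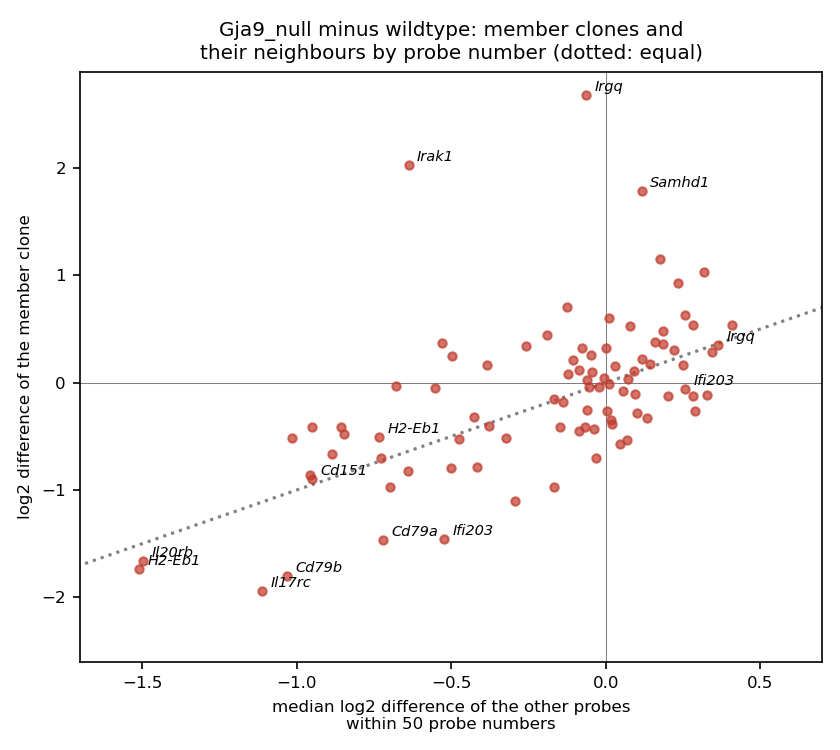
Gja9_null minus wildtype difference of each of the 90 member clones (vertical axis, log2) against the median difference of the other probes within 50 probe numbers (horizontal axis, log2); the dotted line marks equal values. Il20rb, Cd151 and an H2-Eb1 clone lie near the line, and Irak1, Samhd1 and an Irgq clone lie well above it.

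The neighbours of 14 of the 90 member clones, from 13 members, had a median Gja9_null difference from wildtype under -0.7, and all 14 of those clones had a difference under 0 too. The Irak1 clone, whose neighbours stood at -0.64, lay just outside that limit, which was chosen after the values were seen. On the first Gja9_null array these neighbours deviated from their probe means by -1.33 to -0.61, and on the second by -0.61 to 0.38. In Gja9_het against wildtype the neighbours' medians stayed between -0.34 and 0.47. The last 3 of 48 stretches of probe numbers held a clone of 12 members, with a median Gja9_null difference from wildtype of -0.62, against -0.10 for the other 52. For all features the values were -0.51 and -0.06. With local centring the median over the 64 members was -0.003 in place of -0.14. The members with an adjusted p under 0.05 in limma were then Irak1, Irgq and Samhd1, 4.69% of members, with 0.589% of all features.

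**Figure D5:**
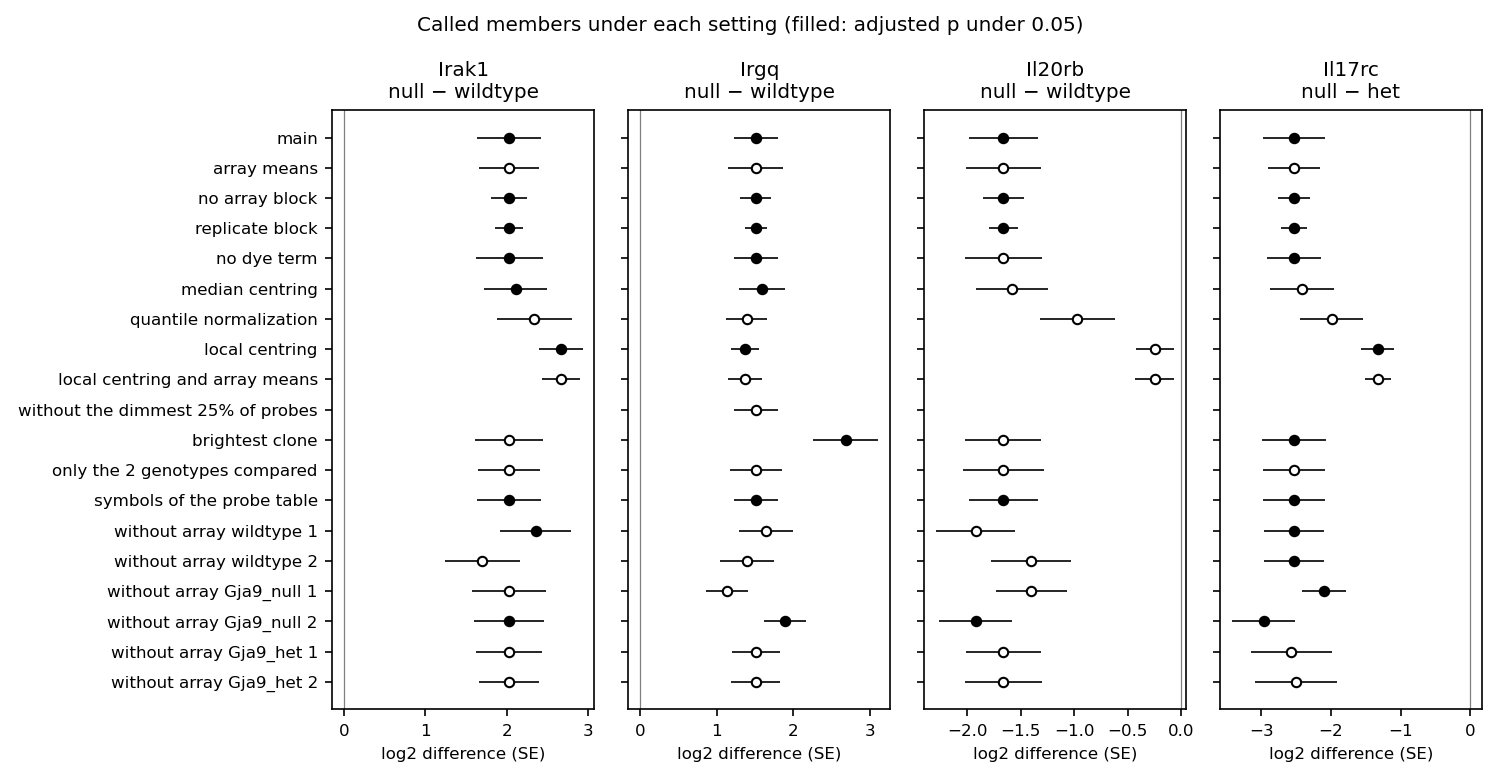
Differences of the called members (horizontal axis, log2, with SE) under each setting, Irak1, Irgq and Il20rb against wildtype and Il17rc against Gja9_het; filled points had an adjusted p under 0.05 in limma. Irak1, Irgq and Il17rc kept their direction and size above 1 in every setting that gave them a value, while Il20rb fell to -0.25 with local centring.

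The calls rested on how the array was treated. With the colours of each array averaged, 0 members passed in any comparison by limma with Benjamini-Hochberg adjustment, and without each of the 12 samples in turn between 0 and 1 passed in Gja9_null against wildtype. Without the first Gja9_null array 0 passed, with 0.536% of all features, and without the second 10 passed, 15.6% of members, with 8.21% of all features. The directions of Irak1, Irgq and Samhd1 were the same without either Gja9_null array, with differences from wildtype of at least 1.13.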

How the data were processed

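Total RNA of 12 brains was labelled with Cy5 or Cy3 and hybridised to 6 spotted 2-colour cDNA arrays, both colours of an array being of 1 genotype, per the labels and the design text. The dye was taken from the label field, which the protocol text contradicts for wildtype 3 and Gja9_null 1. The deposited values are log2 signals relative to the mean of each sample. Base 2 is read from the values: taken back to a linear scale they average 1 in every sample. The correction of background and dyes by the authors was not given in the sources used here. Values were present for 13443 of 28704 probes, 10356 of these with 1 gene, 560 with several and 2527 with none. Symbols were updated by gene number for 10263 probes. Clones of a gene were averaged, for 9514 features. Which samples shared an array was read from the values: the difference of samples 1 and 3 correlated with that of samples 2 and 4 at 0.919 to 0.940.

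A single linear model (limma 3.58.1, R 4.3.3, moderated two-sided tests) covered the 12 samples, with terms for genotype and dye and a random array effect (consensus correlation 0.927, 14.5 degrees of freedom). Calls were made at an adjusted p under 0.05, by Benjamini-Hochberg across the whole table. Named members are those called, the 8 of lowest p in each direction of a comparison, the 2 of lowest p and the 2 brightest of each role, those whose clones opposed each other, and 6 named in earlier results. Members named beyond these, among them Il15ra, Il17b, Irf3, C1qa and most STAT genes, were chosen after their values were seen. The members and the gene lists were chosen with earlier results of these data known. Alternatives covered the array and replicate blocks, the dye, centring, dim probes, clones, and leaving out samples or arrays. As the check of replicate numbers, deviations of same-numbered samples correlated at 0.11 to 0.23 between wildtype and Gja9_het, at -0.09 to -0.05 between wildtype and Gja9_null, and at 0.02 to 0.07 between Gja9_null and Gja9_het. The labels do not pair same-numbered samples of different genotypes, and correlations of this size do not establish such pairs. Data on other connexins that the design text mentions were not analysed here. Figures were drawn with matplotlib 3.10.9 in Python 3.11.15.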

Additional observations from a re-analysis of the deposited data

Results flagged for a closer look

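Among the 43 named members in 3 genotypes, 129 groups of 4 samples were examined for a sample far from the others, its gap divided by the range being above Dixon's critical value. There were 2 such groups. The usual rate of about 1 in 20 holds for independent values and does not apply here, because the 2 colours of an array lie close together. H2-Eb1 was -1.94 in wildtype 4, below the other wildtype samples at -1.66 to -1.64. Ifi203 was -2.22 in Gja9_null 3, below the other Gja9_null samples at -1.71 to -1.63, and came from the clone with values of -4.13, -3.90, -5.41 and -3.89 in those samples.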

How the results depend on the processing

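In Gja9_null against wildtype, where 3 members were called, the count was 0 with array means, quantile normalization and local centring with array means. It was also 0 without the dimmest 25% of probes and with only the 2 genotypes in the fit. The count was 1 with the brightest clone (0.242% of all features), 14 without the array block (15.4%) and 18 with the replicate block (18.6%). It was 0 to 1 without each sample, 10 without the second Gja9_null array, and 0 without the first Gja9_null, second wildtype, or either Gja9_het array. The median over members moved from -0.14 to -0.061 with median centring, -0.0714 with quantile normalization, -0.00251 with local centring, alone or with array means, and -0.0703 without the first Gja9_null array. In Gja9_het against wildtype, the count of 0 became 2 without the array block (0.736% of features) and 3 with the replicate block (1.42%). Without the second wildtype array the count was 1 (Cd44), with 0.2% of features. In Gja9_null against Gja9_het, the count of 2 became 0 with array means, median centring, quantile normalization and local centring with array means. It was also 0 without the dimmest 25% of probes, with only the 2 genotypes and without either Gja9_het array. Local centring gave 6 (1.41% of features), and leaving out the second Gja9_null array gave 8 (8.45%). The count was 17 without the array block (22.3%), 19 with the replicate block (26.2%), and 0 to 2 without each sample. The median of this comparison moved from -0.29 to -0.182 with median centring, -0.0904 with quantile normalization and -0.0216 with local centring, alone or with array means. It was -0.122 without the dimmest 25%, -0.211 without the first Gja9_null array and -0.232 without the second Gja9_het array. Leaving out the dimmest 25% left 49 members and removed Irak1, Il20rb and Il17rc, and the other causes were not tested. The fits without the array block take the colours of an array as independent, and replicate numbers are not shown to pair between genotypes. No direction of a called member reversed under the alternatives run. These values hold no measure of signal over background.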
